A study of Mus musculus with 12 samples.

Results

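Pam2CSK4 was added to resting B (RB) cells that also carried anti-CD86, and the RNA of these cells was compared with that of RB cells given anti-CD86 without Pam2CSK4. Arrays entered this comparison by their labelled treatment, which gave 4 of the 12 arrays of the series, with 2 arrays of cells given both agents (TLR2.CD86) and 2 of cells given anti-CD86. Each of the 2 slides held 1 array of each group, and the groups were compared within the slide. All cells were spleen RB cells from BALB/c mice, labelled female and 6 weeks old (the methods name male or female mice), kept by negative selection of CD43-negative cells and cultured for 4 h. Both groups shared anti-CD86, used at 0.5 µg per 1000000 cells and cross-linked with streptavidin, and they differed in Pam2CSK4, used at 50 ng/ml. Arrays of unstimulated cells, of cells given Pam2CSK4, and of cells given anti-CD40 with or without Pam2CSK4 (2 each) entered the estimate of the spread and the comparisons of the Pam2CSK4 effect. Cells given the isotype control antibody were not analysed here, so a change in these data is a change on top of cross-linked anti-CD86. The paper calls its microarray data representative of biological replicates, but nothing ties the arrays of a group to separate mice. The p-values then measure the spread left between all 12 arrays after condition and slide are fitted, which may be technical.

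Pam2CSK4 is a synthetic diacylated lipopeptide that is sensed at the cell surface by Toll-like receptor 2 paired with TLR6 or TLR1. The receptor passes its signal through MyD88 and IRAK kinases to TRAF6, the IkB kinases and the MAP kinases, and NF-kB then enters the nucleus and switches on genes of inflammation, survival and its own inhibitors. CD86 is a costimulatory ligand for CD28 and CTLA-4 that B cells themselves carry, and binding it with an antibody can also signal into the B cell.

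The level given for a probe is log2 of its background-corrected intensity minus the 75th percentile of its array, so 0 is that percentile and a negative level is a dimmer probe, not an absent RNA. A difference is TLR2.CD86 minus anti-CD86 on this log2 scale. A probe was called at a Benjamini-Hochberg adjusted p under 0.05 in limma, with all 12 arrays in the fit and slide as a term. Slide 1 held 8 arrays and slide 2 held 4, scanned in separate runs, and 5650 probes were higher and 12412 lower on slide 2. Between 46.6% and 60.6% of the spots of an array were well above background.

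The labelled cell type was checked against markers. All 13 B cell markers were well above background on all 4 arrays, with summed linear signals (in units of the array's 75th percentile) of 629 to 706 in anti-CD86 and 662 to 786 in TLR2.CD86 cells. RNA of other cells was measured beside them, since 16 of 17 myeloid markers, 11 of 12 T cell markers and all 10 NK cell markers were also well above background on all 4 arrays. The summed myeloid signal was 386 to 423 in anti-CD86 and 363 to 414 in TLR2.CD86 cells, and that of the T cell markers 25.3 to 29.8 and 23.2 to 29.9. Of 17 myeloid markers tested, 5 were called lower (Flt3 by -0.80, Itgam by -0.62, Mpo by -0.56, Ela2 by -0.38 and Itgax by -0.27) and 1, the lipopolysaccharide coreceptor Cd14, was called higher by 0.53, beside 4.74% lower and 2.71% higher of all genes. The red cell genes Hbb-b1, Alas2 and Hba-a1 were called higher by 0.50, 0.48 and 0.45, and the summed red cell and platelet signal was 64.7 to 80.1 in anti-CD86 and 85.0 to 112 in TLR2.CD86 cells. The remaining T cell marker, Themis, was not well above background on any of the 4 arrays. Of 10 liver markers 7 were well above background on all 4 arrays, with a summed signal of 23.1 to 30.5 in anti-CD86 and 26.4 to 35.5 in TLR2.CD86 cells. In such bulk samples, fewer cells of a type and less RNA per cell cannot be told apart, and the part of other cells in the results was not tested.

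With Pam2CSK4 added to anti-CD86, the 12 genes with the highest difference included those for the survival factor Bcl-xL (Bcl2l1), the chemokines Cxcl1 and Cx3cl1, the interleukin-2 receptor alpha chain CD25 (Il2ra), the cytokine subunit Il12b, the arginine transporter Slc7a1 and the Mediator subunit Med1, by 3.16-fold to 6.08-fold. The other 5 of the 12 were Tm4sf4, Olfr1196, Lpo, Defcr3 and Gm8930, higher by 3.15-fold to 5.82-fold, and larger differences than any of these were found in probes for noncoding RNAs. The genes that fell most encoded the nuclear lamina protein Lmnb1, the exchange factor Dock8 and the mTORC1 inhibitor Ddit4, by 2.23-fold to 2.41-fold. Of 31599 probes tested, 2446 were called (7.74%), with 1207 higher (3.82%) and 1239 lower (3.92%). The changes that reached 2-fold were mostly increases, with 218 higher and 32 lower, and the median size of a called difference was 0.44. All 2446 called probes moved the same way on both slides, beside 69.1% of all probes tested. The calls were made from these same slide differences, so this agreement is in large part a product of the selection. The median difference over all probes was -0.01. Counted by the brightest probe of each of 16783 genes, 1249 were called (7.44%), with 454 (2.71%) higher and 795 (4.74%) lower. By the same probes, the arrays of both groups did not overlap, whether or not the gene was called, in 10.3% of genes with higher and 21.7% with lower values in TLR2.CD86 cells. The number of calls rested on the arrays and terms in the fit. Without the slide term 54 probes were called higher and 17 lower, so that 76.1% of the calls were higher, and in a fit of the 4 arrays alone none were called, with 5453 probes at an unadjusted p under 0.05. Leaving out TLR2.CD86 replicate 2 left 146 higher and 49 lower, replicate 1 left 207 and 59, anti-CD86 replicate 2 left 268 and 102, and anti-CD86 replicate 1 left 509 and 453. Leaving out an array of unstimulated, Pam2CSK4 or anti-CD40 with Pam2CSK4 cells left 540 to 754 higher and 319 to 607 lower, and leaving out an anti-CD40 array left 1088 and 1110.

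**Figure D1:**
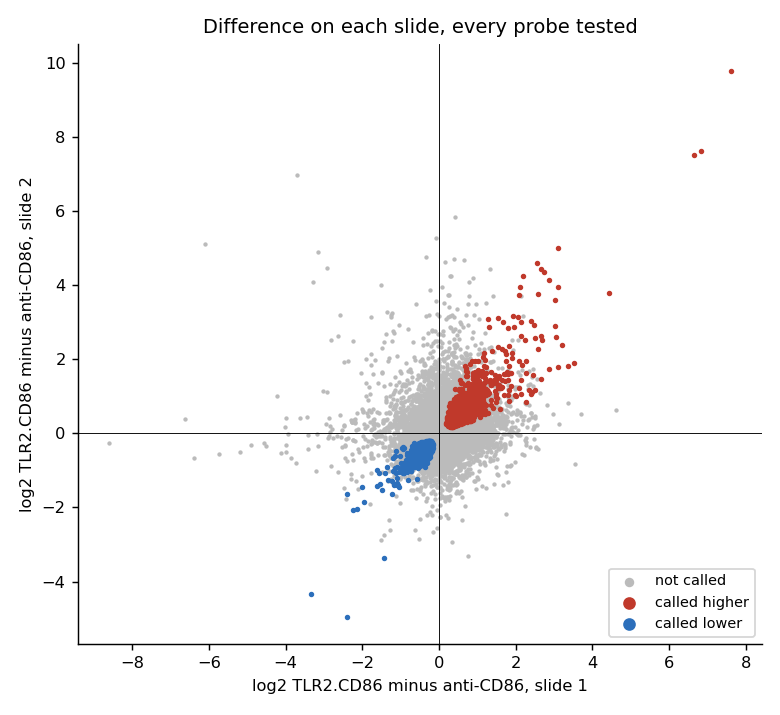
Difference between TLR2.CD86 and anti-CD86 arrays on slide 1 (horizontal axis, log2) and on slide 2 (vertical axis, log2), 1 point per probe tested, with called probes coloured. All 2446 called probes lie where the differences of both slides have the same sign, which follows in large part from calling on these differences.

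The agreement of the slides was far from complete over all probes. The median difference was 0.03 on slide 1 and -0.06 on slide 2, and the correlation between the differences of both slides over the 31599 probes was 0.364, given as a description since the probes of an array share its labelling and its scaling. Over the 28609 probes well above background on all 4 arrays, the median gap between both arrays of a group was 0.201 in anti-CD86 and 0.285 in TLR2.CD86 cells. Scaling to the median of the array in place of the 75th percentile shifted the median difference of all probes to -0.16 and left 164 higher and 77 lower calls, 68.0% of them higher.

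Some probes held through every setting. Called also in each of the 22 settings that tested the same probes, apart from the fit of the 4 arrays alone, were 27 probes, and these carried Med1, Cxcl1, Bcl2l1 (2 probes), Cx3cl1, Slc7a1, Cox4i2, Il2ra, Il12b, Nfkbiz, Ptgs2, Plagl2 and Cdk5r1 among the increases and Tra2a, Ighg and LOC676607 (-1.11) among the decreases, with 11 probes for noncoding RNAs. Ptgs2, the inducible cyclooxygenase, rose by 1.52, and 1 of the 2 anti-CD86 arrays was well above background for it. Plagl2 rose by 1.48 and Cdk5r1 by 1.36. Cox4i2 was not well above background in anti-CD86 cells and was at least 1.60-fold higher in TLR2.CD86 cells. For Tra2a, a splicing regulator, and Ighg, the call came from the dimmer probe, at -1.25 and -1.45, while the brighter probe gave -0.18 (adjusted p = 0.151) and -0.25 (adjusted p = 0.067). These probes are listed because they held, after their values were seen.

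NF-kB is the best known end of the TLR2 pathway, and its binding site (kappa B) can be read directly in promoter sequence. Such sequence is shown for 4 of the genes that rose, chosen among those whose promoter held the kappa B consensus. The lines are RefSeq promoters of assembly GRCm38.p6, 5′ to 3′ on the strand of the gene, in stretches of 60 bases upstream of the annotated start, and capitals mark a match to the kappa B consensus on either strand, with overlapping matches joined. Cxcl1 lies on chr5:90891149-90891208 (plus strand), Il2ra on chr2:11642566-11642625 (plus strand), Bcl2l1 on chr2:152830908-152830967 (minus strand) and Nfkbie on chr17:45555569-45555628 (plus strand).
Cxcl1: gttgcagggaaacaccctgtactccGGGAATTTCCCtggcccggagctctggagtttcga
Il2ra: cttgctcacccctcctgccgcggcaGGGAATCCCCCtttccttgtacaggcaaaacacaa
Bcl2l1: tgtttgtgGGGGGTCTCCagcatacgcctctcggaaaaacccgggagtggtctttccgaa
Nfkbie: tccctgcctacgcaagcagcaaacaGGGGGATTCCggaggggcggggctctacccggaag
The marked match began 71 bases before the start in Cxcl1, 201 in Il2ra, 242 in Bcl2l1 and 106 in Nfkbie. In windows of 250 bases before to 50 after a start, the kappa B consensus was found in 2779 of 32851 promoters (8.46%), and a looser pattern of GGG, any 5 bases and then CC, read on both strands and overlapping the consensus, in 16686 (50.8%). By gene, 9.55% of 27025 genes had a promoter with the consensus and 53.5% one with the looser pattern. Of the 12 genes with the highest difference, 10 had a promoter in the table, and 3 of these held the consensus (Cxcl1, Bcl2l1 and Il2ra) and 5 the looser pattern. Of the 12 with the lowest difference, 9 had a promoter, none held the consensus and 6 held the looser pattern. These are matches of letters, with no test, and the arrays do not measure binding.

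The NF-kB subunits and their IkB inhibitors were among the lists with the highest share of increases. Of 16 measured members, 6 rose and 2 fell, beside 2.71% and 4.74% of all genes, and the median difference was 0.25, beside -0.04 over all genes. The largest increase was in Nfkbiz, which encodes IkB zeta, a nuclear cofactor of NF-kB that is itself made on TLR signalling. Nfkbiz stood at 3.16 and 3.11 on the anti-CD86 arrays and at 4.79 and 4.54 on the TLR2.CD86 arrays (slide 1 and slide 2), a difference of 1.53 ± 0.07 (SE, n = 2 arrays per group) with an adjusted p of 0.000691 in limma with Benjamini-Hochberg adjustment. Nfkbid, which encodes the nuclear inhibitor IkBNS, stood at 2.94 and 2.59 in anti-CD86 and 3.98 and 3.43 in TLR2.CD86 cells, a difference of 0.94. For both genes the lower TLR2.CD86 array was above the higher anti-CD86 array, as in 10.3% of all genes. The cytoplasmic inhibitors Nfkbie and Nfkbib rose by 0.45 and 0.44, and the subunits Nfkb2 (p100) and Rela (p65) by 0.36 and 0.34. Chuk (IkB kinase alpha) fell by 0.23 and Nfkbil1 by 0.29. The difference was 0.12 for Nfkbia, the classical early inhibitor (adjusted p = 0.521), and 0.18 for Nfkb1 (adjusted p = 0.144). Without the slide term, 1 of the 16, Nfkbiz, was called (adjusted p = 0.00827). Promoters were listed for 7 of the 8 called members, of which 6 held the looser pattern and 3 (Nfkb2, Nfkbie and Nfkbid) the kappa B consensus.

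The receptors of the ligand were themselves measured. Tlr2 stood at 2.10 and 1.83 in anti-CD86 and at 2.70 and 2.46 in TLR2.CD86 cells, and rose by 0.62 (adjusted p = 0.00609). In unstimulated cells Tlr2 stood at 2.52 and 2.59, so anti-CD86 cells were the low ones. Its partner Tlr1 stood at 0.92 and 0.75 in anti-CD86 and at 1.61 and 1.34 in TLR2.CD86 cells, and rose by 0.64 (adjusted p = 0.00682). The groups did not overlap for either receptor chain, which held in the higher direction for 10.3% of all genes. The other partner, Tlr6, stood at 0.82 and 0.22 in anti-CD86 and at 0.75 and 0.96 in TLR2.CD86 cells, so the groups overlapped (difference 0.33, adjusted p = 0.295). Of the 20 measured Toll-like receptors and MyD88 pathway members, 4 rose and none fell in limma (3 were lower at an unadjusted p under 0.05), beside 2.71% and 4.74% of all genes. The list median was -0.04, and 0 were called without the slide term. The other increases were Cd14, by 0.53, and Map3k8, the kinase Tpl2 that links TLR signals to ERK, by 0.43, while the adaptor Myd88 gave -0.13 (adjusted p = 0.253). Cd14 stood at 2.57 and 2.28 in anti-CD86 and at 3.15 and 2.75 in TLR2.CD86 cells, beside 3.01 on both unstimulated arrays. Among 16 members of the TRAF, cIAP and A20 feedback list, Traf1 rose by 0.58 and the ubiquitin editing enzyme A20 (Tnfaip3) by 0.27, and none fell (3 were lower at an unadjusted p under 0.05). The antibody target Cd86 stood at 1.51 and 1.38 in anti-CD86 and 1.54 and 1.21 in TLR2.CD86 cells by its brightest probe (difference -0.07, adjusted p = 0.537), and its other probe gave 0.25 (adjusted p = 0.062).

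Among survival genes, Bcl2l1, copies of A1 and both measured PIM kinases rose. Of 11 measured anti-apoptotic BCL2 family members and PIM kinases, 6 rose, 1 (Bcl2l2, by -0.43) fell and 4 did not pass, beside 2.71% higher and 4.74% lower of all genes. The list median was 0.30, and 3 were called higher without the slide term. Bcl2l1 stood at -0.28 and -0.22 in anti-CD86 and at 1.98 and 1.75 in TLR2.CD86 cells, a difference of 2.11 ± 0.10 (SE) or 4.32-fold with an adjusted p of 0.000691. Another probe of Bcl2l1 rose by 2.39, and 1 more was at least 3.13-fold higher. Bcl2a1c, Bcl2a1a and Bcl2a1b, copies of the A1 gene that NF-kB induces in lymphocytes, rose by 1.15, 1.08 and 1.02. These copies are nearly identical in sequence, so their probes may share RNA and are not separate evidence. The survival kinases Pim1 and Pim2 rose by 0.94 and 0.27, and the differences of Bcl2 (0.15, adjusted p = 0.158) and Mcl1 (-0.10, adjusted p = 0.205) did not pass. Of 21 pro-apoptotic BCL2 family members, caspases and related genes, 2 rose (the death receptor Fas by 0.61 and Casp4 by 0.32) and 4 fell (Ddit4, Apaf1, Trp53inp1 and Casp8), with a median of -0.13. Apaf1, the scaffold of the apoptosome, fell by 0.31 (adjusted p = 0.0491) by its brightest probe, and its other 2 probes (-0.15 and -0.72) were not called.

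A part of the cytokines and chemokines rose. Of 21 measured cytokines, 7 rose, 14 did not pass and none fell in limma, with a median of 0.27 and 2 lower at an unadjusted p under 0.05. Of 13 chemokines 5 rose, 8 did not pass and none fell, with a median of 0.46 and 0 lower at an unadjusted p under 0.05. Of all genes 2.71% rose and 4.74% fell. Without the slide term 3 of these cytokines and 2 of these chemokines were called. Il12b, the subunit shared by interleukin-12 and interleukin-23, stood at -0.47 and -0.64 in anti-CD86 and at 1.24 and 0.97 in TLR2.CD86 cells, a difference of 1.66 ± 0.07 (SE) with an adjusted p of 0.000689. Il6 stood at -0.97 and -0.90 in anti-CD86 and 0.31 and 0.20 in TLR2.CD86 cells. Tnf stood at 0.94 and 0.66 in anti-CD86 and 2.21 and 1.76 in TLR2.CD86 cells. Both rose by 1.19, with no overlap between groups, as did Il1b by 1.06 and Ebi3, a subunit of interleukin-27 and interleukin-35, by 1.00. Such an absence of overlap in the higher direction was found in 10.3% of all genes. In unstimulated cells Il12b stood at -0.03 on both arrays, Il6 at -0.11 and 0.01 and Il1b at 4.28 and 4.30, all above anti-CD86 cells. For Il1b the levels were 3.58 and 3.72 in anti-CD86 and 4.67 and 4.74 in TLR2.CD86 cells. Tnf stood at 0.74 and 0.70 in unstimulated cells, within the range of the anti-CD86 arrays. The regulatory cytokine Il10 rose by 0.65 and Ifng by 0.27. The sister subunit Il12a gave -0.07 (adjusted p = 0.437). Cxcl1, a neutrophil attractant, stood at -3.27 and -2.98 in anti-CD86 and at -0.69 on both TLR2.CD86 arrays, a difference of 2.44 ± 0.21 (SE) with an adjusted p of 0.00394. Cxcl2, which binds the same receptor, rose by 1.09, the macrophage inflammatory proteins Ccl3 and Ccl4 by 0.80 and 0.46, and Cxcl16 by 0.42. Ccl3 stood at 3.36 and 3.41 in anti-CD86 and at 4.17 and 4.20 in TLR2.CD86 cells, beside 3.89 and 3.92 in unstimulated cells. Ccl4 stood at 4.80 and 4.49 in anti-CD86 and at 5.33 and 4.89 in TLR2.CD86 cells, below unstimulated cells (5.52 and 5.55). Pam2CSK4 alone gave -0.10 for Ccl4. Cx3cl1 (fractalkine) stood at -1.89 and -2.20 in anti-CD86 and at 0.19 and -0.26 in TLR2.CD86 cells, 4.03-fold higher with an adjusted p of 0.000691. Myeloid cells also make several of these RNAs, and the summed myeloid marker signal, in which S100a9 was the brightest gene, was 414 in TLR2.CD86 beside 423 in anti-CD86 cells on slide 1 and 363 beside 386 on slide 2. The part of myeloid cells in these differences was not tested.

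**Figure D2:**
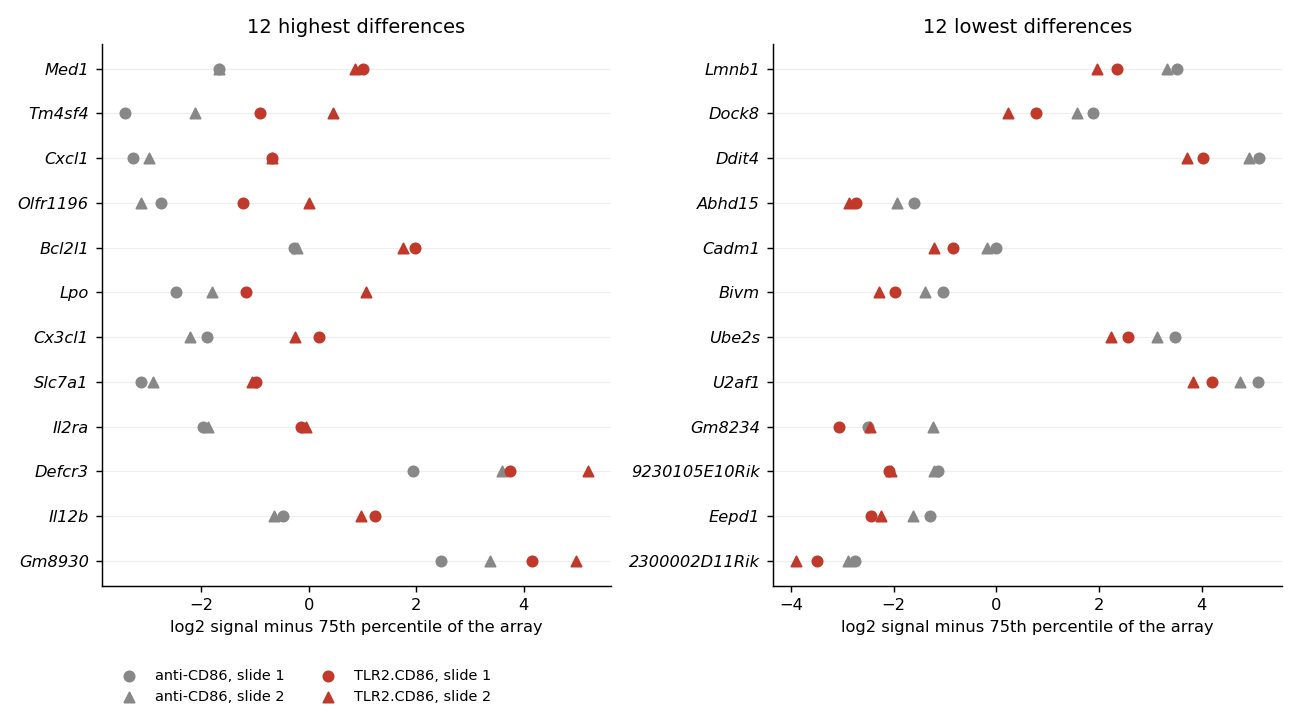
Level of the 12 genes with the highest (left) and the 12 with the lowest (right) difference on each of the 4 arrays, as log2 signal minus the 75th percentile of the array, with anti-CD86 in grey, TLR2.CD86 in red, slide 1 as circles and slide 2 as triangles. The groups do not overlap for Med1 or Il2ra (as in 10.3% of all genes in that direction). For Gm8234 the anti-CD86 array of slide 1 (-2.49) lies below the TLR2.CD86 array of slide 2 (-2.46).

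Activation receptors and adhesion molecules changed in part, and of all genes 2.71% were called higher and 4.74% lower. Il2ra stood at -1.97 and -1.86 in anti-CD86 and at -0.14 and -0.05 in TLR2.CD86 cells, a difference of 1.82 ± 0.10 (SE) or 3.53-fold with an adjusted p of 0.000769. The arrays lay close together within each group, and the other probe was at least 1.35-fold higher. Of 28 measured interleukin receptors and SOCS genes 3 rose and none fell (4 were lower at an unadjusted p under 0.05 in limma), the others being Il4ra by 0.54 and Il21r by 0.49, and the list median was -0.04. Of 20 costimulatory ligands and receptors 3 rose and none fell, with a median of 0.14 and 0 lower at an unadjusted p under 0.05. Icam1, the ligand of the T cell integrin LFA-1, stood at 1.03 and 1.00 in anti-CD86 and at 2.26 and 2.03 in TLR2.CD86 cells, a difference of 1.13 with an adjusted p of 0.00107. The activation antigen Cd69 rose by 0.50, from 3.74 and 3.43 to 4.30 and 3.88, beside 4.16 on both unstimulated arrays. Cd40 rose by 0.41 by its brightest probe (adjusted p = 0.0229), and its other 2 probes were not called. The difference was 0.40 for Cd80 (adjusted p = 0.283) and 0.12 for Cd83 (adjusted p = 0.497).

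Among 22 immediate early transcription factors, Myc rose by 0.82 and Nr4a3 by 0.39, and none fell (5 were lower at an unadjusted p under 0.05 in limma). For each list in this paragraph, the share called over all genes was 2.71% higher and 4.74% lower. Myc, a driver of cell growth, stood at 4.72 and 4.56 in anti-CD86 and at 5.63 and 5.28 in TLR2.CD86 cells (adjusted p = 0.00341). Fos, Egr1 and Jun, which peak soon after a stimulus, gave -0.21, -0.000896 and 0.09 at 4 h and were not called. Of 18 DUSP phosphatases and regulators of G protein signalling, 4 rose and 2 fell, with Dusp14 rising by 0.93 and Dusp2 by 0.38 and Rgs16 falling by 0.57 and Dusp7 by 0.46. Irf4, needed for plasma cell formation and class switching, stood at 3.05 and 3.17 in anti-CD86 and at 3.98 and 4.08 in TLR2.CD86 cells, a difference of 0.92 with an adjusted p of 0.000769. Of 23 B cell and plasma cell fate genes, 3 rose and 4 fell. Pou2f2 and Ikzf3 rose by 0.34 and 0.33, and the plasma cell genes Xbp1 and Tnfrsf17 (BCMA) fell by 0.55 and 0.52, Bach2, a repressor of the plasma cell programme, by 0.29 and 2010001M09Rik, the file's name for Mzb1, by 0.28.

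Receptors that place B cells within lymphoid tissue moved in both directions. Beside the counts that follow, 2.71% of all genes were called higher and 4.74% lower. Of 21 trafficking receptors 3 rose, namely Cxcr5, which draws B cells into follicles, by 0.51, Ccr7, which draws them towards T cells, by 0.50, and Gpr183, which guides them at the follicle edge, by 0.29. The gut homing receptor Ccr9 fell by 0.61 and the integrin Itga4 by 0.47, and the list median was -0.12. Itga4 stood at 1.33 and 1.32 in unstimulated, 1.95 and 1.88 in anti-CD86 and 1.57 and 1.32 in TLR2.CD86 cells, so anti-CD86 cells were the high ones. Ccr9, at 0.77 and 0.66 in unstimulated and 0.47 and 0.15 in TLR2.CD86 cells, ended below unstimulated cells. The other 2 probes of Itga4 (-0.26 and -0.10) were not called. Of 28 B cell receptor signalling genes and inhibitory coreceptors, those called included Cd79a, a signalling chain of the receptor, which rose by 0.71, whereas Btk, Malt1 and Lair1 fell by 0.29, 0.33 and 0.40. Of 16 marginal zone and Notch2 genes none rose in limma (1 was higher at an unadjusted p under 0.05) and 2 fell, Hes5, a Notch target, by 0.42 and Dock8. Cr2, which encodes CD21 and CD35, gave -0.13 (adjusted p = 0.181) and Notch2 -0.06 (adjusted p = 0.494). Of 16 genes of MHC class II presentation, Ciita, the master activator of the class, rose by 0.30, none fell (1 was lower at an unadjusted p under 0.05 in limma), and the list median was 0.04.

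The genes that fell most had other roles. Lmnb1, lamin B1 of the nuclear lamina, stood at 3.51 and 3.33 in anti-CD86 and at 2.34 and 1.97 in TLR2.CD86 cells, a difference of -1.27 ± 0.06 (SE), 2.41-fold lower with an adjusted p of 0.000691. Ddit4, an inhibitor of mTORC1 that is induced by stress, stood at 5.12 and 4.92 in anti-CD86 and at 4.02 and 3.71 in TLR2.CD86 cells, a difference of -1.15 ± 0.05 (SE), 2.23-fold lower with an adjusted p of 0.000691 (0.0538 without the slide term). Dock8, an activator of Cdc42 needed by marginal zone B cells, stood at 1.87 and 1.56 in anti-CD86 and 0.78 and 0.22 in TLR2.CD86 cells by its brightest probe, and its other 2 probes gave -0.15 (adjusted p = 0.349) and 0.26 (adjusted p = 0.431). The groups did not overlap for any of these 3 probes of Lmnb1, Ddit4 and Dock8. In the lower direction this held for 21.7% of all genes, called or not, and these 3 were picked by their differences on the same arrays. Ube2s, the ubiquitin enzyme that works with the anaphase promoting complex, fell by 0.91, the splicing factor U2af1 by 0.90, the adhesion molecule Cadm1 by 0.93 and Abhd15 by 1.04. Bivm, Gm8234, 9230105E10Rik, Eepd1 and 2300002D11Rik fell by 0.87 to 0.91. Of 25 genes of quiescence and growth restraint none rose in limma (1 was higher at an unadjusted p under 0.05) and 3 fell, Ddit4, Txnip (by 0.33) and Bach2, with a median of -0.17. The shares over all genes were 2.71% higher and 4.74% lower.

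The remaining genes with the highest differences differed in how close the arrays of a group lay. Med1, a subunit that joins Mediator to nuclear receptors, stood at -1.67 and -1.66 in anti-CD86 and at 1.01 and 0.86 in TLR2.CD86 cells, a difference of 2.61 ± 0.06 (SE) or 6.08-fold with an adjusted p of 0.000112. Slc7a1, which imports arginine and lysine, stood at -3.12 and -2.89 in anti-CD86 and at -0.97 and -1.05 in TLR2.CD86 cells, 3.99-fold higher with an adjusted p of 0.00407. In both genes the arrays of a group lay close together beside the gap between the groups. Tm4sf4 stood at -3.42 and -2.11 in anti-CD86 and at -0.91 and 0.46 in TLR2.CD86 cells, a difference of 2.54. Defcr3, named for an intestinal defensin, stood at 1.94 and 3.59 in anti-CD86 and at 3.75 and 5.20 in TLR2.CD86 cells, a difference of 1.71. Olfr1196, Lpo and Gm8930 rose by 2.32, 2.08 and 1.65. The difference of Olfr1196 was 1.53 on slide 1 and 3.11 on slide 2, and its adjusted p in limma without the slide term was 0.147. In Tm4sf4, Lpo, Defcr3 and Gm8930 the array of slide 2 was the higher one in both groups, and without the slide term the adjusted p of these genes was 0.355 to 0.603.

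Growth and metabolism lists held few calls, and over all genes 2.71% were called higher and 4.74% lower. Of 48 ribosome biogenesis genes 2 rose (Rrp1b by 0.62, with its other 2 probes not called, and Rrp9 by 0.21), beside 2.71% of all genes, and 12 were higher at an unadjusted p under 0.05. Of 31 genes of Myc, nucleotide and polyamine synthesis, Myc rose and the purine synthesis enzymes Atic and Paics fell by 0.68 and 0.23. Atic stood at -0.14 and -0.21 in unstimulated, 0.50 and 0.33 in anti-CD86 and -0.24 and -0.28 in TLR2.CD86 cells. Paics stood at 3.47 and 3.44 in unstimulated, 3.21 and 3.12 in anti-CD86 and 2.99 and 2.87 in TLR2.CD86 cells. Of 28 glycolysis and glucose uptake genes Eno2 and Pfkl rose by 0.58 and 0.38 and Hk3 fell by 0.27. Slc7a1 was the single call among 29 amino acid transporters and aminoacyl-tRNA synthetases. Of 28 cholesterol genes Mvd rose by 0.32 and Srebf2 and Abca1 fell by 0.51 and 0.39. Of 32 G1 cyclins, CDKs and licensing factors Ccnd2, a cyclin of early G1 in B cells, rose by 0.67, and Ccna2, Cdc6 and Orc6l fell by 0.41, 0.39 and 0.27. Of 30 genes of the unfolded protein response and heat shock Myd116 rose by 0.43 and Xbp1, Pdia4 and Pdia6 fell by 0.55, 0.49 and 0.28. Of 24 endocytosis Rab GTPases Rab20 rose by 0.65 and Rab5c fell by 0.60. Among these genes, 1 other probe of Paics (0.05) and 1 of Srebf2 (0.34) had the opposite sign and were not called. The other probe of Cdc6 (-0.28, adjusted p = 0.156) and both other probes of Pdia6 (-0.14 and -0.22) had the same sign and were not called either. Among the genes described before, the same held for another probe of Chuk, Rela, Pim2, Trp53inp1, Cxcl16, Ifng, Lair1, Txnip, Itgam and Ela2.

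The interferon-stimulated genes held 1 call. Of 35 measured members none was called higher in limma (5 were higher at an unadjusted p under 0.05) and Stat2 fell by 0.23, with a median of -0.03. Cmpk2 stood at 0.09 and -3.69 in anti-CD86 and at -3.89 and -4.21 in TLR2.CD86 cells, so its difference rested on 1 anti-CD86 array (adjusted p = 0.155), and it was not well above background on either TLR2.CD86 array. Mx1 was not well above background on any of the 4 arrays. None of 8 GIMAP GTPases was called in limma (1 had an unadjusted p under 0.05), the largest differences being 0.21 in both Gimap7 (adjusted p = 0.698) and Gimap4 (adjusted p = 0.0953). Over all 27 pathway lists together, 62 of 618 distinct members were called higher and 33 lower, beside 2.71% and 4.74% of all genes. The lists were chosen with earlier results of these data known, so these counts are not independent of the data. Without the slide term 13 members were called higher and none lower, with 2811 of all probes then at an unadjusted p under 0.05 in limma. Leaving out 1 array left 22 to 55 higher and 2 to 27 lower. The lowest counts of increases, 22 each, came without either TLR2.CD86 array, and those of decreases, 2 and 4, without TLR2.CD86 replicate 1 and replicate 2. Without anti-CD86 replicate 1 there were 35 and 16, and without replicate 2 there were 30 and 6. Without an array of unstimulated, Pam2CSK4 or anti-CD40 with Pam2CSK4 cells the decreases numbered 11 to 15.

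**Figure D3:**
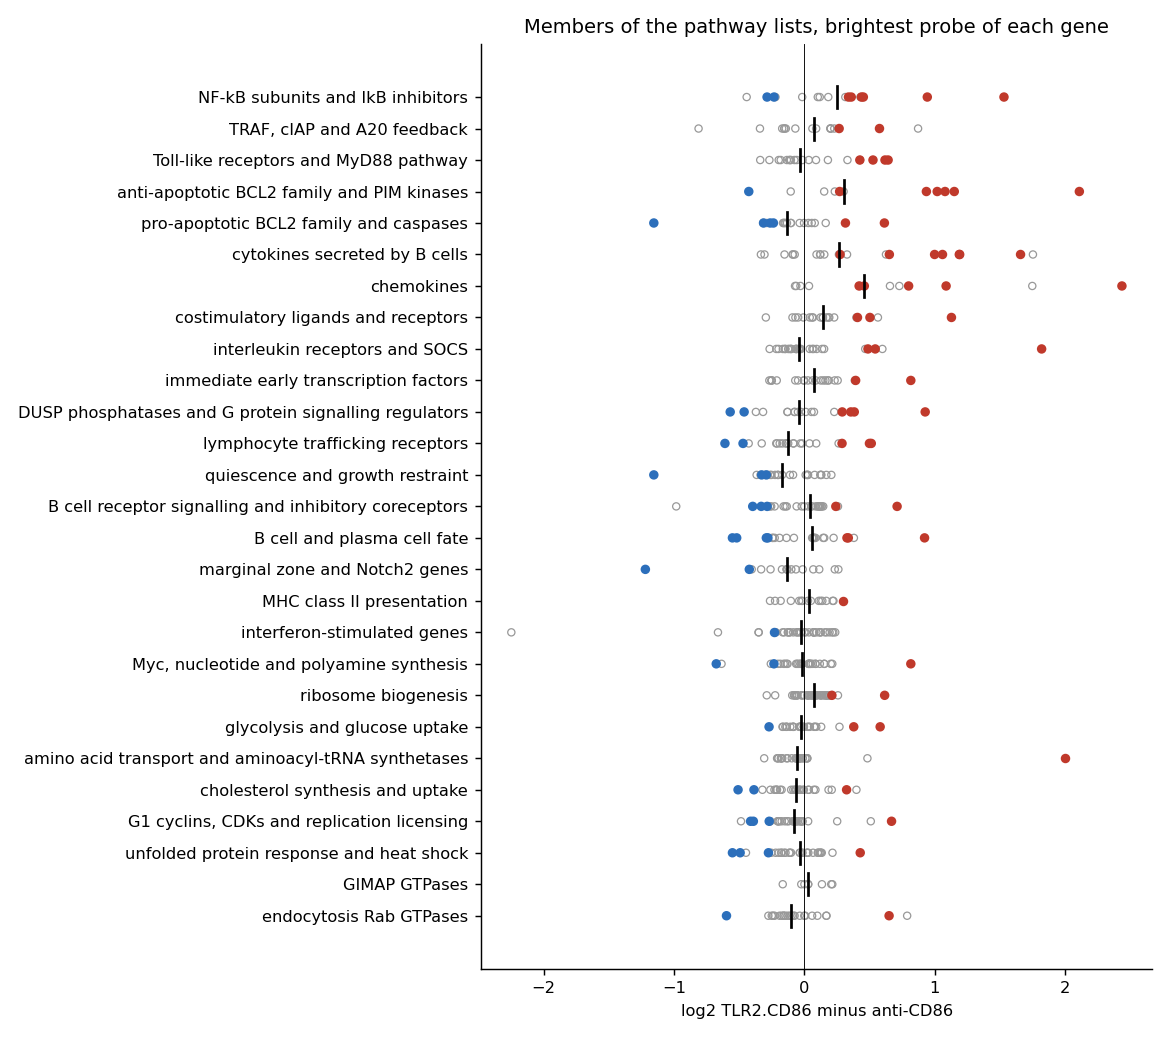
Difference between TLR2.CD86 and anti-CD86 (horizontal axis, log2) for every measured member of the 27 pathway lists, by the brightest probe of each gene, with called members filled in red (higher) or blue (lower), others open, and a black bar at the list median. The chemokines have the highest median (0.46) and quiescence and growth restraint the lowest (-0.17).

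The effect of Pam2CSK4 in the presence of anti-CD86 was next set beside its effect alone, against unstimulated cells. Both comparisons use different arrays, but both unstimulated arrays lay on slide 1. Alone, 3510 probes were called (11.1%), with 1489 higher (4.71%) and 2021 lower (6.4%). Of the 2446 probes called with anti-CD86, 956 (39.1%) were also called alone, which is 27.2% of the calls alone. In 913 of the 956 the direction was the same (488 higher and 425 lower) and in 43 it was opposite. Bcl2l1 rose by 2.11 with anti-CD86 and by 2.27 alone, Il2ra by 1.82 and 1.75, Cxcl1 by 2.44 and 2.04, Nfkbiz by 1.53 and 1.91, Icam1 by 1.13 and 1.54 and Irf4 by 0.92 and 1.04. For none of these 6 genes did the difference of effects pass (adjusted p = 0.147 to 0.847).

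A difference between both effects passed for 74 probes (0.234%), with 41 higher (0.13%) and 33 lower (0.104%), and 5174 probes had an unadjusted p under 0.05. Of the 74, 46 were also called in the comparison with anti-CD86. Med1 stood at -0.47 and -0.48 in unstimulated, -0.08 and -0.26 in Pam2CSK4, -1.67 and -1.66 in anti-CD86 and 1.01 and 0.86 in TLR2.CD86 cells. Its Pam2CSK4 effect was therefore 2.61 from a lower start with anti-CD86 and 0.35 alone, a difference of effects of 2.25 with an adjusted p of 0.00332. Rmrp, the RNA of the RNase MRP enzyme, rose by 0.88 with anti-CD86 and gave -0.53 alone, a difference of effects of 1.41 with an adjusted p of 0.00499. It stood at 4.55 and 4.52 in unstimulated and 3.22 and 2.84 in anti-CD86 cells, so that the TLR2.CD86 level, 4.11 and 3.72, was the one nearer to unstimulated cells. Rab5c, a GTPase of early endosomes, stood at 3.46 and 3.47 in unstimulated and 4.48 and 4.24 in Pam2CSK4 cells, and at 3.31 and 3.01 in anti-CD86 and 2.69 and 2.44 in TLR2.CD86 cells. Its effect of Pam2CSK4 thus had opposite signs, with a difference of -1.64 and an adjusted p of 0.00401. Lmnb1 differed in the same direction (-0.97, adjusted p = 0.0230). For Slc7a1 the difference of 1.61 did not pass (adjusted p = 0.0817). The count was small and moved with the fit, from 6 without the slide term and 0 with the 8 arrays that carry no anti-CD40 to 141 with quantile normalization, 159 with normexp background correction and 937 with trend and robust moderation, and leaving out 1 array left 11 to 70.

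**Figure D4:**
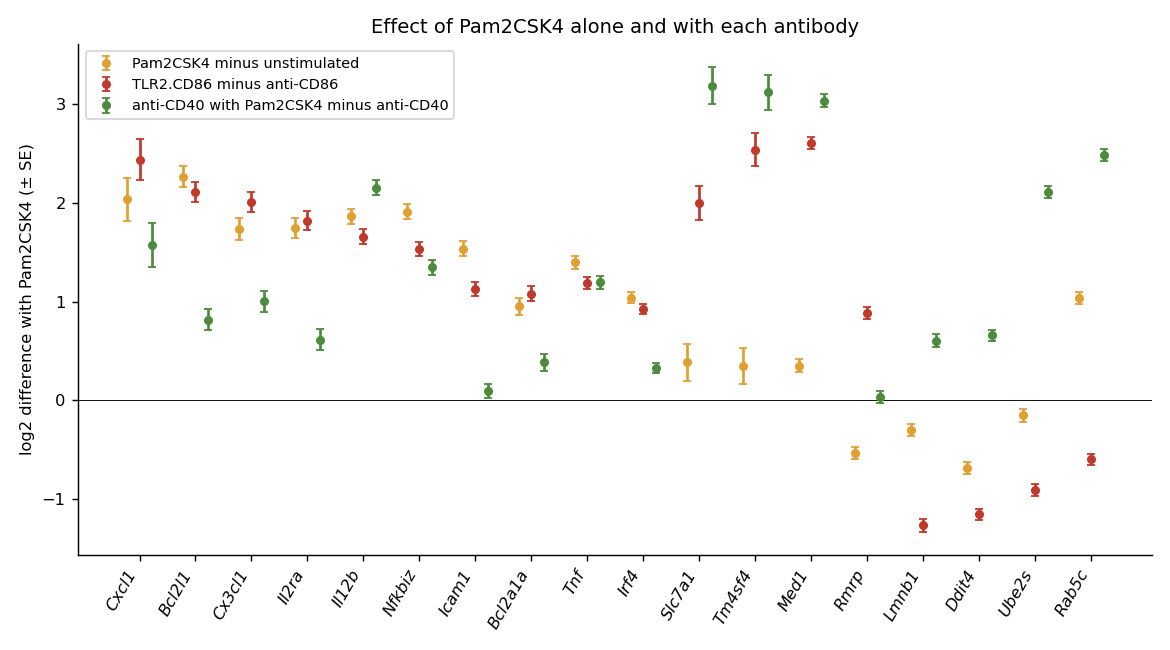
Difference with Pam2CSK4 (vertical axis, log2, ± SE of the limma fit) for 18 genes, alone against unstimulated cells, with anti-CD86 against anti-CD86, and with anti-CD40 against anti-CD40. Bcl2l1 and Il2ra rose by similar amounts alone and with anti-CD86, and Rab5c fell with anti-CD86 and rose in the other settings.

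With anti-CD40, an antibody to another activating receptor of B cells, the effect of Pam2CSK4 was different for more probes. Added to anti-CD40, Pam2CSK4 gave 4804 calls (15.2%), with 2791 higher (8.83%) and 2013 lower (6.37%). In all, 816 probes were called with both antibodies, 33.4% of the calls with anti-CD86 and 17.0% of those with anti-CD40. Of these 634 moved the same way and 182 opposite ways. The difference of effects passed for 2416 probes (7.65%), with 1024 higher (3.24%) and 1392 lower (4.41%). This count was 259 without the slide term, 397 with median normalization and 4208 with trend and robust moderation. Leaving out 1 array left 497 to 2194, with 497 and 939 without TLR2.CD86 replicates 1 and 2, 630 without anti-CD86 replicate 2, 903 and 947 without the arrays of anti-CD40 with Pam2CSK4, 1189 without either unstimulated array, 1212 without either Pam2CSK4 array and 1562 without anti-CD40 replicate 2. Both arrays of anti-CD40 with Pam2CSK4 lay on slide 1. Bcl2l1 rose by 2.11 with anti-CD86 and 0.82 with anti-CD40 (difference 1.29, adjusted p = 0.00678), Il2ra by 1.82 and 0.61 (difference 1.21, adjusted p = 0.0085) and Icam1 by 1.13, beside 0.09 with anti-CD40 (difference 1.04, adjusted p = 0.00403). All 3 genes started higher in anti-CD40 cells, where Il2ra stood at 1.88 and 1.72 and Bcl2l1 at 3.53 and 3.34. Ddit4 fell by 1.15 with anti-CD86 and gave 0.66 with anti-CD40 (difference -1.81, adjusted p = 0.000173), and Lmnb1 fell by 1.27 and gave 0.60 (difference -1.87, adjusted p = 0.00024). Ube2s fell by 0.91 with anti-CD86 and rose by 2.11 with anti-CD40 (difference -3.02, adjusted p = 2.87e-05). Il12b rose in both, by 1.66 and 2.16. Of 8 liver markers tested none was called with anti-CD86 in limma (1 had an unadjusted p under 0.05), and all 8 were called lower with anti-CD40, beside 6.51% of all genes, with a median of -3.10. The part of these genes' RNA in the differences of effects was not tested.

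**Figure D5:**
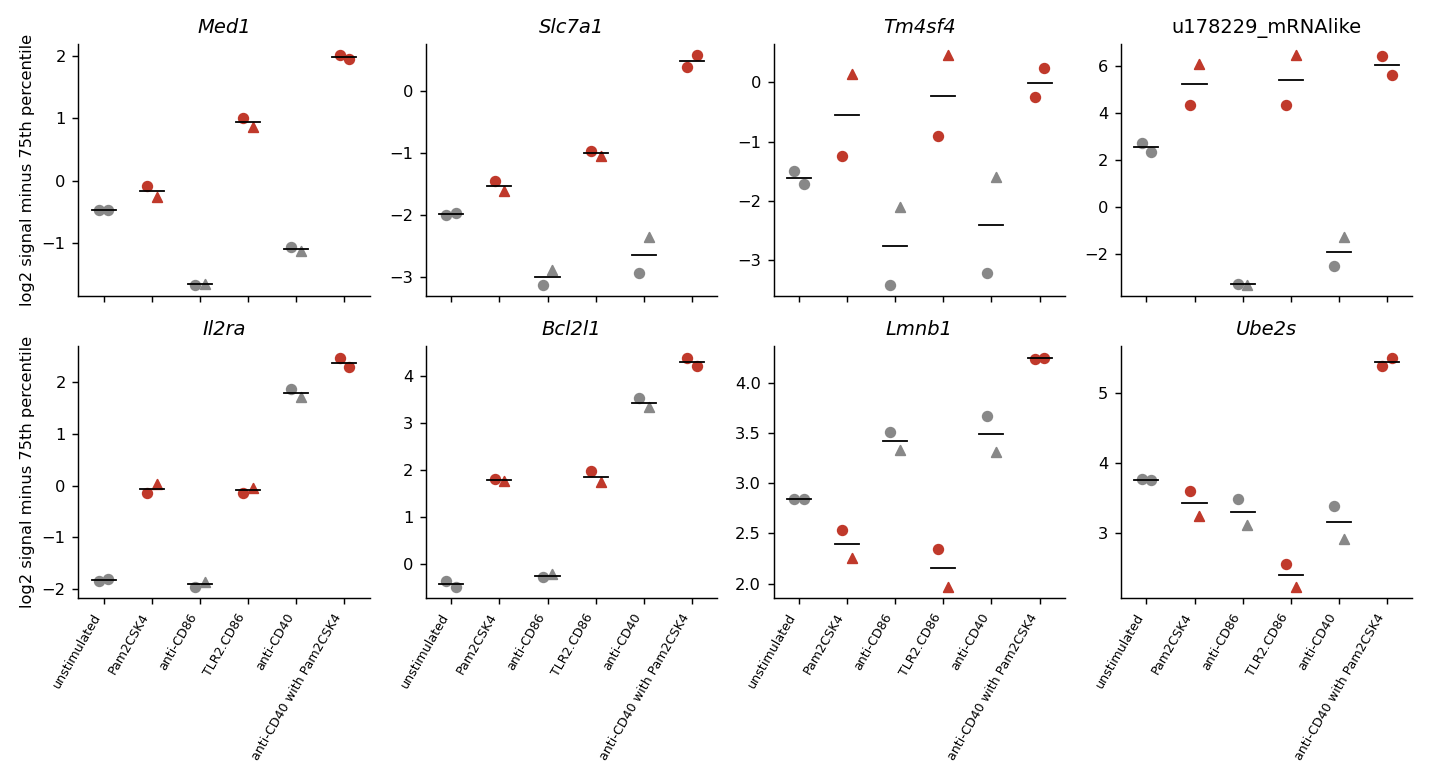
Level on all 12 arrays (vertical axes, log2 signal minus the 75th percentile of the array) of 7 genes and the noncoding probe u178229_mRNAlike, with Pam2CSK4 groups in red, other groups in grey, slide 1 as circles, slide 2 as triangles and group means as lines. Med1 is lowest in anti-CD86 (-1.67 and -1.66) and highest in anti-CD40 with Pam2CSK4 cells (2.01 and 1.95).

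The array also carried 8427 tested probes for noncoding RNAs, and the split of calls was different there, with 652 higher (7.74%) and 160 lower (1.9%), beside 555 higher (2.4%) and 1079 lower (4.66%) of the other 23172 probes. The largest differences of all were in such probes, which are named after their values were seen. The probe u178229_mRNAlike stood at -3.27 and -3.31 in anti-CD86 and at 4.35 and 6.45 in TLR2.CD86 cells, a difference of 8.70 ± 0.52 (SE) with an adjusted p of 0.00104. In unstimulated cells it stood at 2.72 and 2.35, so anti-CD86 cells were the low ones, along with anti-CD40 cells at -2.54 and -1.30. The probe u182895_mRNAlike stood at -2.19 and -1.47 in anti-CD86 and at 4.63 and 6.16 in TLR2.CD86 cells, a difference of 7.23 with an adjusted p of 0.00104, and at 3.71 and 3.21 in unstimulated cells. For both probes the effect of Pam2CSK4 was larger with anti-CD86 than alone, by 6.65 (adjusted p = 0.0408) and 5.99 (adjusted p = 0.0324). Cells given Pam2CSK4 alone stood at 4.33 and 6.10 for u178229_mRNAlike and at 4.43 and 6.24 for u182895_mRNAlike, close to TLR2.CD86 cells. The larger effect thus lay in the lower start of anti-CD86 cells, not in a higher level with both agents. The files give no gene or position for these probes.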

How the data were processed

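RNA of mouse spleen RB cells was labelled with Cy3 and hybridised to 12 one-colour Agilent custom arrays (61307 probes). The authors extracted the images with Feature Extraction 10.5.1.1 (processing notes and file headers) and deposited, per array, a processed intensity for each spot, corrected for background. They also deposited a table of log2 values, which per array equal log2 of that intensity minus 1 constant close to the 75th percentile and were used as an alternative. Arrays were annotated to mm9, and the probes were not placed on a genome here.

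From these, log2 intensity minus the array's 75th percentile was computed without control and outlier spots, keeping saturated spots. A probe entered the test if any condition had it well above background on each of its arrays (31667 probes), less 68 with a missing value, which left 31599. Contrasts were fitted in limma 3.58.1 (R 4.3.3) over 12 arrays with condition and slide as terms (5 residual degrees of freedom) and Benjamini-Hochberg adjustment. The procedure was tested on simulated data. The paper names a one way test, run as an alternative without moderation. Other alternatives changed the slide term, arrays, scaling, background correction, dim probe filter and moderation. The number of arrays limits precision, and an exact permutation test of 2 against 2 arrays cannot go below p = 0.333.

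A gene was given by its brightest tested probe that is not a noncoding RNA probe, and a probe not above background in a group by a bound ("at least"). Bounds set the mean of the brighter group against the dimmest signal well above background. Named were the 12 highest and 12 lowest genes (called, well above background and unsaturated on all 4 arrays, same direction on both slides), up to 4 called members of each list (or 2 with the largest difference where fewer than 2 were called), Tlr2, Tlr1, Tlr6, Cd86 and Il2ra, and up to 5 genes in each direction for the differences of effects, for which the slide condition could not be computed. Members and lists were chosen with earlier results of these data known. List members beyond this rule were named after their values were seen. Not every called list member is reported here by name. Replicate numbers matched the slides in these groups, and the deviations of same-numbered arrays correlated at 0.538. Sequences are from RefSeq (GRCm38.p6). Python 3.11.15 with pandas 2.3.3 and matplotlib 3.10.9 made the tables and figures.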

Additional observations from a re-analysis of the deposited data

Results flagged for a closer look

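The effect of Pam2CSK4 with anti-CD86 differed from its effect alone, by a test of the difference itself in limma, for 74 probes, and from its effect with anti-CD40 for 2416 probes. The effect with anti-CD86 minus that alone was 2.25 for Med1, 2.19 for Tm4sf4, 1.90 for Cpxm2, 1.41 for Rmrp and 1.23 for Gm2527 (log2). It was negative for Rab5c (-1.64), Camk1d (-1.22), Gm5846 (-1.02), Lmnb1 (-0.97) and Pygo2 (-0.76). A positive value is not always a larger effect. The effect on Gm2527 was 0.16 with anti-CD86 (not called) and -1.07 alone, and that on Cpxm2 was 0.57 and -1.33. For Cpxm2 the levels were -0.69 and -0.84 in unstimulated, -2.05 and -1.99 in Pam2CSK4, -3.19 and -2.83 in anti-CD86 and -2.39 and -2.48 in TLR2.CD86 cells.

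Against the effect with anti-CD40, the largest positive differences were in genes and pseudogenes of the major urinary proteins, which liver secretes, with 4.80 for Mup2, 4.62 for Mup1, 4.51 for Mup-ps11, 4.27 for Mup-ps15 and 4.25 for Mup-ps2. Their difference with anti-CD86 was 0.04 to 0.15 and was not called in any of them. Mup1 stood at 2.88 and 2.75 in anti-CD86, at 2.97 and 2.74 in TLR2.CD86, at 3.27 and 2.99 in anti-CD40 and at -1.30 and -1.38 in anti-CD40 with Pam2CSK4 cells, so these differences lay in the arrays of anti-CD40 with Pam2CSK4. The largest negative differences were in Rab5c (-3.08), Ube2s (-3.02), Gm2180 (-2.49), the gamma-secretase subunit Aph1a (-2.21) and the ESCRT protein Chmp4b (-2.09), all of which were higher with Pam2CSK4 added to anti-CD40 (1.83 to 2.48).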

How the results depend on the processing

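With the replicate block in place of the slide, 93 probes were called higher and 29 lower with Pam2CSK4 added to anti-CD86, beside 1207 and 1239. Without the slide term there were 54 and 17, without moderation as well 57 and 39, with the 4 arrays alone 0 and 0, with the 8 arrays free of anti-CD40 415 and 225, with median normalization 164 and 77, without the filter on dim probes 94 and 26, with normexp 1960 and 2117, and with trend and robust moderation 1980 and 2687. Leaving out 1 array gave 146 to 1088 higher and 49 to 1110 lower. The difference from the effect alone passed for 6 probes without the slide term, 10 with the replicate block, 0 with 8 arrays, 141 with quantile normalization, 159 with normexp, 0 without the dim filter, 13 without moderation, 937 with trend and robust moderation and 11 to 70 without 1 array, beside 74. The difference from the effect with anti-CD40 passed for 259, 507, 397 (median normalization), 238 (no dim filter), 345 (no moderation) and 4208 (trend and robust), and 497 to 2194 without 1 array, beside 2416, where the first pair is without the slide term and with the replicate block. Distinct list members called numbered 13 higher and 0 lower without the slide term, 0 and 0 with 4 arrays, 39 and 7 with 8 arrays, 7 and 3 with median normalization, and 22 to 55 and 2 to 27 without 1 array, beside 62 and 33. The cause of these changes in the counts was not tested.

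Of 115 named genes 98 were called, and all 98 kept their sign in the 25 alternatives. Fits that changed the slide term, dim probe filter, moderation or arrays of other groups left each difference the same, so no sign could turn there. A sign could turn only with other scaling or background correction, the authors' table, or without an array of TLR2.CD86 or anti-CD86 cells. Of the 98 called genes, 16 passed without the slide term, 83 with slide as a random block and 98 in the authors' table. With 8 arrays 56 passed, and with median normalization 19. Signs turned only in uncalled differences. Without 1 array these ran from -0.10 to 0.53 in Gimap7, -0.15 to 0.012 in Cd86, -0.093 to 0.071 in Gm5846, -0.020 to 0.10 in Mup1, -0.030 to 0.27 in Mup-ps11 and -0.035 to 0.18 in Mup-ps15. With median normalization they were -0.10 in Mup1, -0.026 in Mup-ps11, -0.072 in Mup-ps15 and -0.056 in Mup-ps2, and with normexp -0.013 in Mup1.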

Other observations

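Noncoding RNA probes with lower signal in TLR2.CD86 cells included 4 that moved in parallel, named here after their values were seen and without their accession-based names. Their differences were -2.15, -2.10, -1.90 and -1.53 with anti-CD86 (adjusted p = 0.000691, 0.000689, 0.000669 and 0.000863 in limma with Benjamini-Hochberg adjustment) and -6.49, -6.35, -5.99 and -3.56 with anti-CD40. With Pam2CSK4 alone their differences were 0.17, 0.19, 0.27 and 0.37, and the difference of effects between anti-CD86 and Pam2CSK4 alone passed for all 4 (-2.32, -2.29, -2.18 and -1.90).

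Of all called probes, 2326 were well above background on all 4 arrays, 45 were below it on both anti-CD86 arrays, 11 on both TLR2.CD86 arrays, and 3 on all 4.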
